A study of Cavia porcellus with 10 samples.

Results

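The SLC25 family, the solute carriers of mitochondria, was read from scleral RNA-seq counts as every gene whose symbol, in upper case, begins with SLC25A. This gave 46 genes of 16421 distinct symbols, and 42 of the 46 held enough reads to be tested. The libraries came from whole sclera, the tough white collagen shell of the eye, of male guinea pigs (Cavia porcellus) aged 2 to 3 weeks. Eyes of the myopia group came from animals that wore lenses over both eyes to make them nearsighted (lens-induced myopia), and control eyes came from untreated animals. Each group had 5 libraries, 1 eye each, and no genetic change was named for either group. Whether some eyes of a group came from the same animal is not stated, so the p-values describe variation among eyes, which can be narrower than variation among animals. The comparison asked which carrier transcripts differed between myopic and untreated sclera.

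Carriers of this family span the inner mitochondrial membrane in most cases and exchange nucleotides, phosphate, carboxylates, amino acids and cofactors between the cytosol and the matrix. The inner membrane is otherwise closed to such solutes, so respiration, haem synthesis and the urea and fatty acid pathways all depend on these exchangers. Fibroblasts, the resident cells of the sclera, use the ATP and the amino acids that pass through them when they make collagen.

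The carriers split evenly in the myopic sclera, and several substrate classes held carriers that rose beside carriers that fell. Of the 42 genes tested, 15 were higher and 15 lower in myopia than in control, and 12 did not pass an adjusted p of 0.05. Called genes thus made up 71.4% of the carriers tested, beside 71.9% of all 14683 genes tested (36.9% higher and 35.1% lower). The family as a whole changed about as often as the background did. These 14683 are lines of the count data, where a symbol can hold more than 1 line, while each carrier is counted on 1 line. The counts of each substrate class below are to be read beside these shares. The groups did not overlap for 23 of the 42 carriers, 11 higher and 12 lower, or 54.8%, beside 57.8% of all genes (29.8% higher and 28% lower). The median log2 fold change was -0.15 over the carriers and 0.03 over all genes, and the quartiles of the carriers were -0.61 and 0.85. The lowest called carriers were those of amino acids (SLC25A29, -1.62), glutathione (SLC25A39, -1.47) and oxoglutarate (SLC25A11, -1.35), and SLC25A47 (-1.54), and the highest were SLC25A46 (3.79), SLC25A16 (3.02) and the NAD carrier SLC25A51 (2.00). A change of 1 log2 unit or more was reached by 10 carriers that rose and 8 that fell, 42.9% of those tested, beside 32.1% of all genes.

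**Figure D1:**
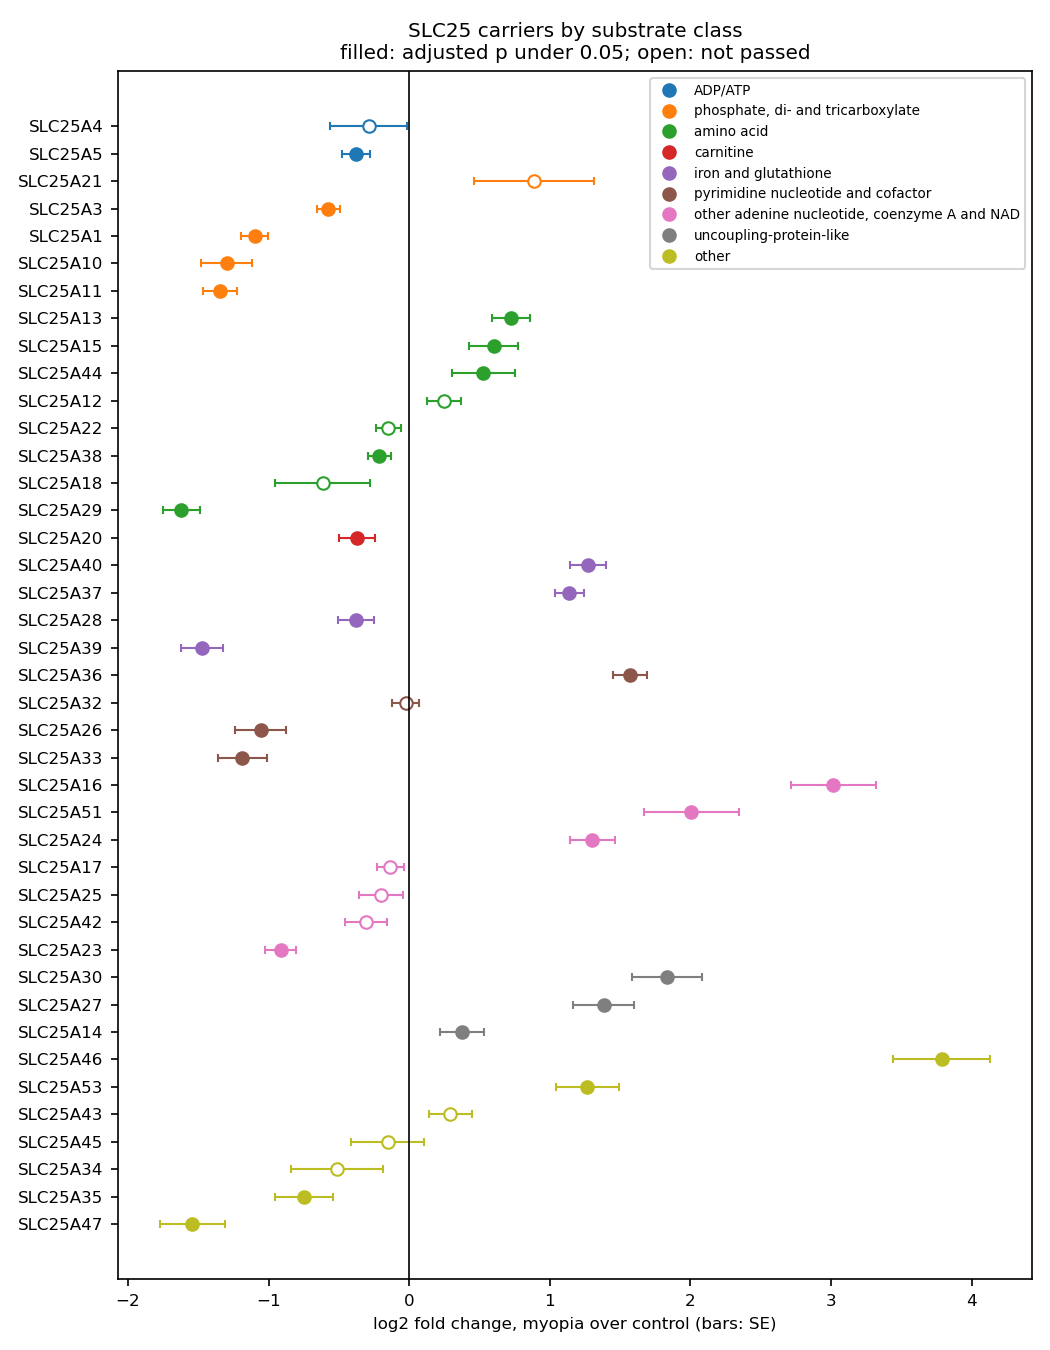
Log2 fold change of 41 of the 42 carriers tested, myopia over control, with SE, coloured by substrate class. Filled points passed an adjusted p of 0.05 and open points did not; phosphate and carboxylate carriers lie mostly left of 0 and uncoupling-protein-like carriers right of it.

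Total counts per library lay between 32309258 and 34055139 in myopia and between 32568123 and 35430797 in control. On the first principal component of log2 CPM, which held 77.1% of the variance, control libraries 4 and 5 scored -49.7 and -24.6, nearer to the myopia libraries (61.5 to 72.5) than control libraries 1 to 3 (-94.6 to -81.5). Levels are given in CPM (counts scaled to a common library size) with TMM factors (trimmed mean of M-values), which put higher and lower relative to the bulk of genes. With total-count scaling instead, the median of all genes was 0.47 on the log2 scale, and 22 carriers were then higher (52.4% of those tested) and 9 lower (21.4%), beside 7633 higher (52.0%) and 2751 lower (18.7%) of all genes. In whole tissue, fewer cells of a type and less RNA per cell cannot be told apart. The defining fibroblast genes were abundant in all libraries, with COL1A1 at 35555 ± 3273 CPM in myopia and 82728 ± 9358 CPM in control (SD, n = 5 each). Of the markers listed for other cells, 7 of 15 for skeletal muscle, 4 of 4 tested for red blood cells, 6 of 8 for macrophages and 4 of 6 for photoreceptors were lower in myopia and none (0) of these higher. Of inner retina and glia markers 2 of 7 were higher and 1 lower, of brown fat markers 2 of 3 tested higher and 1 lower, and of the 8 fibroblast genes 2 were higher and 4 lower. Macrophage markers summed to 214 to 311 CPM in myopia and 469.6 to 625 CPM in control, and photoreceptor markers to 38.8 to 201 CPM in myopia and 187 to 344 CPM in control. Inner retina and glia markers summed to more, 1465 to 4250 CPM in myopia and 2740 to 4516 CPM in control, with an overlap. GFAP, with the highest mean of them, did not pass (adjusted p = 0.131) and was named after its values were seen. AQP4 (log2 fold change 2.11 ± 0.36, SE, adjusted p = 0.000197) and SLC1A3 (1.36 ± 0.19, SE, adjusted p = 3.58e-05) were higher. RBPMS was lower (-0.65 ± 0.13, SE, adjusted p = 0.000585). The part of these cells in the carriers' levels was not tested.

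The ADP/ATP carriers, which export the ATP made in mitochondria in exchange for ADP, showed 1 small fall among the 2 tested. SLC25A5, the form common to dividing and non-muscle cells, had 24.5, 24.7, 29.5, 26.1 and 29.97 CPM in myopia libraries 1 to 5, against 29.98, 37.3, 35.8, 32.2 and 39.8 CPM in control libraries 1 to 5. All myopia libraries lay below all control libraries, though myopia 5 (29.97 CPM) and control 1 (29.98 CPM) nearly met. The log2 fold change was -0.38 ± 0.10 (SE, adjusted p = 0.00451); with total-count scaling it turned to 0.06 and did not pass (adjusted p = 0.676). SLC25A4, the form of heart and skeletal muscle, had 74.4, 125, 137, 110.5 and 57.96 CPM in myopia libraries 1 to 5, against 91.1, 79.4, 193, 145 and 108 CPM in control libraries 1 to 5. The groups overlapped across most of their range, and its log2 fold change of -0.29 ± 0.27 (SE, adjusted p = 0.355) did not pass and became 0.15 with total-count scaling. The 15 skeletal muscle markers summed to 3800, 6134, 5793, 5291 and 2829 CPM in myopia libraries 1 to 5, against 5719, 3980, 10412, 7868 and 4955 CPM in control libraries 1 to 5. SLC25A4 was lowest in myopia 5 and highest in control 3, which also held the lowest and the highest muscle sum; the part of muscle in its level was not tested. The germ-cell form SLC25A31 had 6 reads over all myopia libraries and 0 over all control libraries and was not tested, and SLC25A6 was not analysed here. ADP/ATP carrier genes have near-identical copies in mammalian genomes, and how reads shared between copies were counted is not given, so these values are uncertain.

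Of the 5 phosphate and carboxylate carriers tested, 4 were lower in myopia, 0 were higher and 1 did not pass. Over all genes tested, 35.1% were lower and 36.9% higher, and a class of 5 is small. The median of the class was -1.10 on the log2 scale. With total-count scaling the count was less one-sided, as given below for SLC25A3 and SLC25A21. SLC25A3 brings phosphate into the matrix for ATP synthesis and was the most heavily counted carrier. It had 245, 276.5, 263, 247 and 255 CPM in myopia libraries 1 to 5, against 374, 419, 383, 362 and 376 CPM in control libraries 1 to 5. The highest myopia library, at 276.5 CPM, lay well below the lowest control library, at 362 CPM, with a log2 fold change of -0.57 ± 0.08 (SE, adjusted p = 3.31e-05); with total-count scaling this was -0.13 and did not pass (adjusted p = 0.158). SLC25A11 swaps matrix oxoglutarate for cytosolic malate in the malate-aspartate shuttle. Its level was 56.8, 68.3, 64.02, 55.6 and 58.9 CPM in myopia libraries 1 to 5, against 167, 176, 174, 140.0 and 115 CPM in control libraries 1 to 5. Every control library held at least 115 CPM and no myopia library more than 68.3 CPM, and the log2 fold change was -1.35 ± 0.12 (SE, adjusted p = 8.54e-07). SLC25A1 exports citrate, the carbon source of cytosolic fatty acid and sterol synthesis. It was measured at 38.9, 37.3, 45.04, 38.4 and 38.4 CPM in myopia libraries 1 to 5, against 97.4, 85.6, 91.05, 79.1 and 71.1 CPM in control libraries 1 to 5, a log2 fold change of -1.10 ± 0.10 (SE, adjusted p = 8.5e-07). SLC25A10, the dicarboxylate carrier for malate and succinate, stood at 15.9, 18.99, 15.7, 17.6 and 18.2 CPM in myopia libraries 1 to 5, against 55.2, 54.4, 43.2, 33.8 and 26.2 CPM in control libraries 1 to 5. Control libraries 4 and 5 were the nearest to myopia, yet all groups stayed apart, and the log2 fold change was -1.30 ± 0.18 (SE, adjusted p = 2.43e-05). SLC25A21, which carries oxoadipate from lysine breakdown, had few reads, at 1.40 ± 0.356 CPM in myopia and 0.75 ± 0.386 CPM in control (SD, n = 5 each), and its log2 fold change of 0.89 ± 0.43 (SE, adjusted p = 0.0781) did not pass. It passed as higher with limma-voom (1.10, adjusted p = 0.0471) and with total-count scaling (1.33, adjusted p = 0.0192).

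A carrier's share of the family's reads in a library does not depend on the scaling between libraries. The 46 carriers together held 0.144 ± 0.00587% of the counts in myopia and 0.132 ± 0.00738% in control (SD, n = 5 each); on the TMM scale the order is the other way, 1236 ± 54.6 CPM in myopia and 1547 ± 107 CPM in control, so no direction is given for the family total. Within the family, phosphate and carboxylate carriers made up 29.9% to 31.0% of the reads in the myopia libraries and 41.0% to 46.5% in the control libraries. Pyrimidine nucleotide and cofactor carriers made up 11.99% to 14.0% in myopia and 6.15% to 7.37% in control, and carriers of other adenine nucleotides, coenzyme A and NAD 11.6% to 14.1% in myopia and 7.81% to 9.72% in control. The uncoupling-protein-like class held 2.52% to 2.81% in myopia and 0.71% to 1.38% in control. None of these 4 ranges overlapped between groups. The same held for amino acid carriers (15.10% to 16.88% in myopia, 12.96% to 15.08% in control), whose ranges nearly met. It also held for the class of remaining carriers (1.91% to 2.60% in myopia, 1.37% to 1.65% in control). The ranges of the iron and glutathione class and of the carnitine carrier overlapped. Groups did not overlap for 57.8% of all genes tested, nor for the ratios of 61.6% of all pairs of carriers tested. The separation is thus not shown to be particular to substrate classes. Shares are parts of a whole, so a lower share of a large class raises the sum of the others. The ADP/ATP carriers kept a like share, 10.3 ± 2.36% in myopia and 10.2 ± 2.67% in control, with a wide overlap. Shares of reads are not shares of molecules, since longer transcripts give more reads, and they were not tested.

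**Figure D2:**
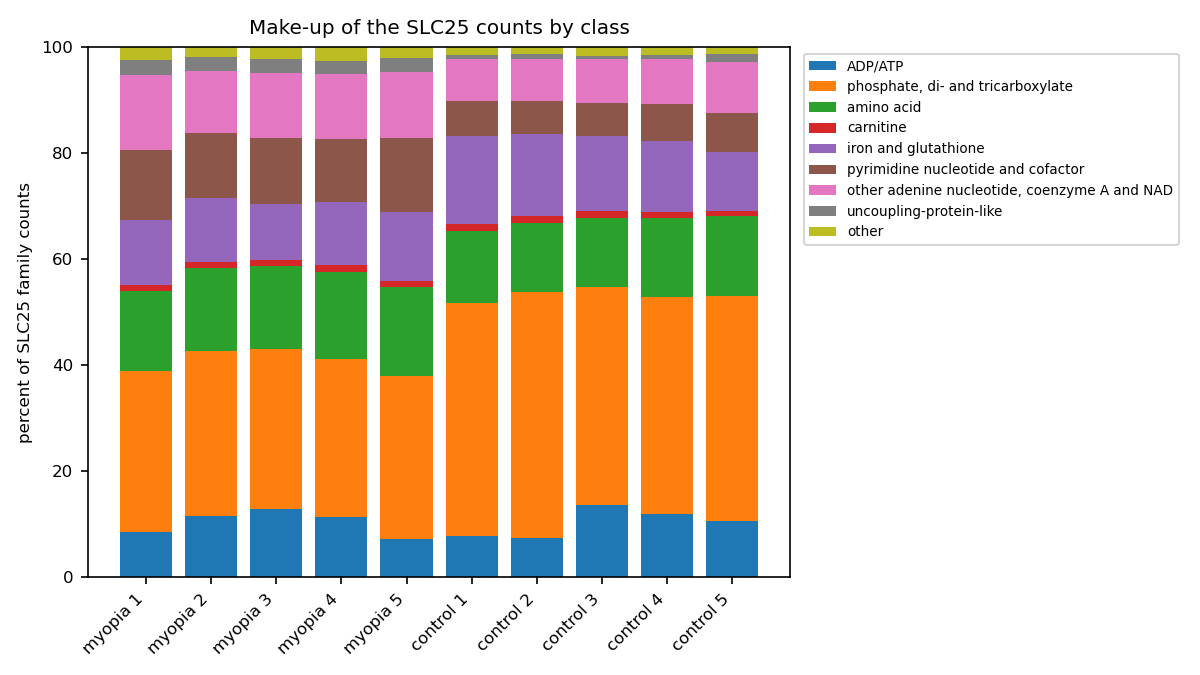
Percent of all SLC25 counts that each substrate class holds in each library, myopia libraries left and control libraries right. The phosphate and carboxylate class takes 29.9% to 31.0% in myopia and 41.0% to 46.5% in control.

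Amino acid carriers moved both ways, with 3 higher, 2 lower and 3 not passed among the 8 tested. The strongest change was in SLC25A29, a carrier of arginine, lysine and other basic amino acids, with 16.1, 17.2, 15.4, 19.2 and 18.3 CPM in myopia libraries 1 to 5, against 65.4, 54.2, 59.1, 46.6 and 39.7 CPM in control libraries 1 to 5. Even the lowest control library, control 5, lay far above the highest myopia library, myopia 4, and the log2 fold change was -1.62 ± 0.13 (SE, adjusted p = 4.67e-07). The aspartate-glutamate carriers SLC25A12 and SLC25A13 (citrin) are the calcium-regulated arm of the malate-aspartate shuttle. SLC25A13 had 29.2, 33.1, 35.7, 31.7 and 37.6 CPM in myopia libraries 1 to 5, against 15.7, 19.1, 17.3, 23.8 and 25.2 CPM in control libraries 1 to 5. It rose in myopia with no overlap, a log2 fold change of 0.72 ± 0.13 (SE, adjusted p = 0.00027). SLC25A12 had 43.9, 62.6, 63.02, 54.6 and 58.3 CPM in myopia libraries 1 to 5, against 39.7, 42.1, 51.2, 55.5 and 49.6 CPM in control libraries 1 to 5. These values overlapped, and its log2 fold change of 0.25 ± 0.12 (SE, adjusted p = 0.0805) did not pass. It passed as higher with upper-quartile factors (0.31, adjusted p = 0.0412) and with total-count scaling (0.68, adjusted p = 0.000946). It also did so without myopia 1 (0.33, adjusted p = 0.0197), without control 4 (0.32, adjusted p = 0.0351) and with control 4 and control 5 both left out (0.36, adjusted p = 0.0193).

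The ornithine carrier SLC25A15, which serves the urea cycle, rose, averaging 7.91 ± 0.955 CPM in myopia and 5.22 ± 1.23 CPM in control (SD, n = 5 each), a log2 fold change of 0.60 ± 0.18 (SE, adjusted p = 0.00779). SLC25A44, a carrier of branched-chain amino acids, averaged 13.9 ± 2.26 CPM in myopia and 9.61 ± 3.40 CPM in control (SD, n = 5 each) and had a log2 fold change of 0.53 ± 0.22 (SE, adjusted p = 0.0458), but leaving out any of 7 of the libraries (control 1, 2 or 3, or myopia 1, 2, 3 or 4) ended the call, with log2 fold changes of 0.39 to 0.57 and adjusted p values of 0.0502 to 0.116. SLC25A38 imports glycine for haem synthesis. It averaged 39.3 ± 2.65 CPM in myopia and 45.5 ± 3.38 CPM in control (SD, n = 5 each), a log2 fold change of -0.21 ± 0.08 (SE, adjusted p = 0.0358); that call ended on leaving out any of 7 libraries (control 1, 2 or 4, or myopia 1, 3, 4 or 5), with log2 fold changes of -0.21 to -0.17 and adjusted p values of 0.0578 to 0.0956. It was also lost with upper-quartile factors (adjusted p = 0.115), and with total-count scaling the gene was higher instead (0.24, adjusted p = 0.00792). The glutamate carriers SLC25A22 and SLC25A18 did not pass, at 26.1 ± 2.58 CPM in myopia and 28.9 ± 1.60 CPM in control (SD, n = 5 each) for SLC25A22 and 2.61 ± 1.22 CPM in myopia and 4.01 ± 0.38 CPM in control (SD, n = 5 each) for SLC25A18. With total-count scaling SLC25A22 passed as higher (0.30, adjusted p = 0.0347), and with 1 surrogate variable in the fit SLC25A18 passed as lower (-0.90, adjusted p = 0.0072). SLC25A18 was at 0.676 CPM in myopia 2 and at 2.45 CPM or more in every other library. Myopia 2 also held the lowest sum of inner retina and glia markers, 1465 CPM, and the part of these cells was not tested. SLC25A2, a second ornithine carrier, and SLC25A48 had 1 and 2 reads over the myopia libraries and 1 and 4 over the control libraries, and were not tested.

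SLC25A20 brings acylcarnitines into the matrix for fatty acid oxidation. It had 13.2, 14.03, 16.2, 15.4 and 14.3 CPM in myopia libraries 1 to 5, against 21.2, 20.6, 21.9, 16.4 and 14.5 CPM in control libraries 1 to 5. Control libraries 1 to 3 lay above all myopia libraries, while control libraries 4 and 5 lay at or near the myopia levels. The log2 fold change of -0.37 ± 0.13 (SE, adjusted p = 0.0199) passed, but not without control 1 (-0.31, adjusted p = 0.0595), control 2 (-0.33, adjusted p = 0.0559) or control 3 (-0.30, adjusted p = 0.0651), and it was 0.09 with total-count scaling. Of its 5 partners in the carnitine shuttle, CPT1A, which makes acylcarnitines at the outer membrane, rose (0.32 ± 0.11, SE; adjusted p = 0.0159) and CRAT, the carnitine acetyltransferase, fell (-0.65 ± 0.14, SE; adjusted p = 0.000794), and 3 did not pass.

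The iron and glutathione carriers came in related pairs of which 1 member rose and the other fell, although the fall of SLC25A28 turned to 0.08 with total-count scaling. SLC25A37 (mitoferrin-1) and SLC25A28 (mitoferrin-2) import iron for haem and iron-sulfur clusters, the first mainly in developing red cells and the other in most tissues. SLC25A37 had 41.7, 42.9, 35.6, 43.1 and 43.4 CPM in myopia libraries 1 to 5, against 20.4, 15.7, 20.1, 20.9 and 16.7 CPM in control libraries 1 to 5. Every myopia library held more than any control library, and the log2 fold change was 1.14 ± 0.11 (SE, adjusted p = 1.06e-06). SLC25A28 had 35.9, 49.2, 39.7, 36.1 and 44.8 CPM in myopia libraries 1 to 5, against 64.9, 59.6, 52.6, 49.1 and 40.98 CPM in control libraries 1 to 5. Its libraries overlapped, since control 5 lay among the myopia values. The log2 fold change of -0.38 ± 0.13 (SE, adjusted p = 0.0185) passed, but did not without control 1 (-0.29, adjusted p = 0.0583), control 2 (-0.33, adjusted p = 0.0507) or myopia 1 (-0.33, adjusted p = 0.0501).

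Red blood cell markers went the other way from SLC25A37. Of 6 listed genes with counts, 4 were tested and all 4 fell. The list summed to 100.4 to 456 CPM in the myopia libraries and 2504 to 10562 CPM in the control libraries; AHSP and EPB42 had too few reads to be tested. The globin HBB averaged 131 ± 65.96 CPM in myopia and 3263 ± 1729 CPM in control (SD, n = 5 each) and ALAS2, the first enzyme of red-cell haem synthesis, 1.53 ± 1.03 CPM in myopia and 34.03 ± 18.9 CPM in control (SD, n = 5 each). The higher level of SLC25A37 in myopia was measured in libraries with a lower sum of red-cell transcripts, and the part of red cells in its level was not tested.

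SLC25A39 and SLC25A40 carry glutathione, the main thiol antioxidant, into the matrix. SLC25A39 had 50.2, 51.7, 47.8, 50.9 and 56.4 CPM in myopia libraries 1 to 5, against 169.6, 165, 163, 126 and 89.9 CPM in control libraries 1 to 5. It fell in myopia, with a log2 fold change of -1.47 ± 0.15 (SE, adjusted p = 2.14e-06); control 5 was the closest control library to the myopia range. SLC25A40, with fewer reads, had 14.6, 11.6, 12.2, 12.6 and 12.4 CPM in myopia libraries 1 to 5, against 5.96, 4.55, 4.81, 5.51 and 5.49 CPM in control libraries 1 to 5. It rose, with no overlap and a log2 fold change of 1.27 ± 0.13 (SE, adjusted p = 2.09e-06).

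**Figure D3:**
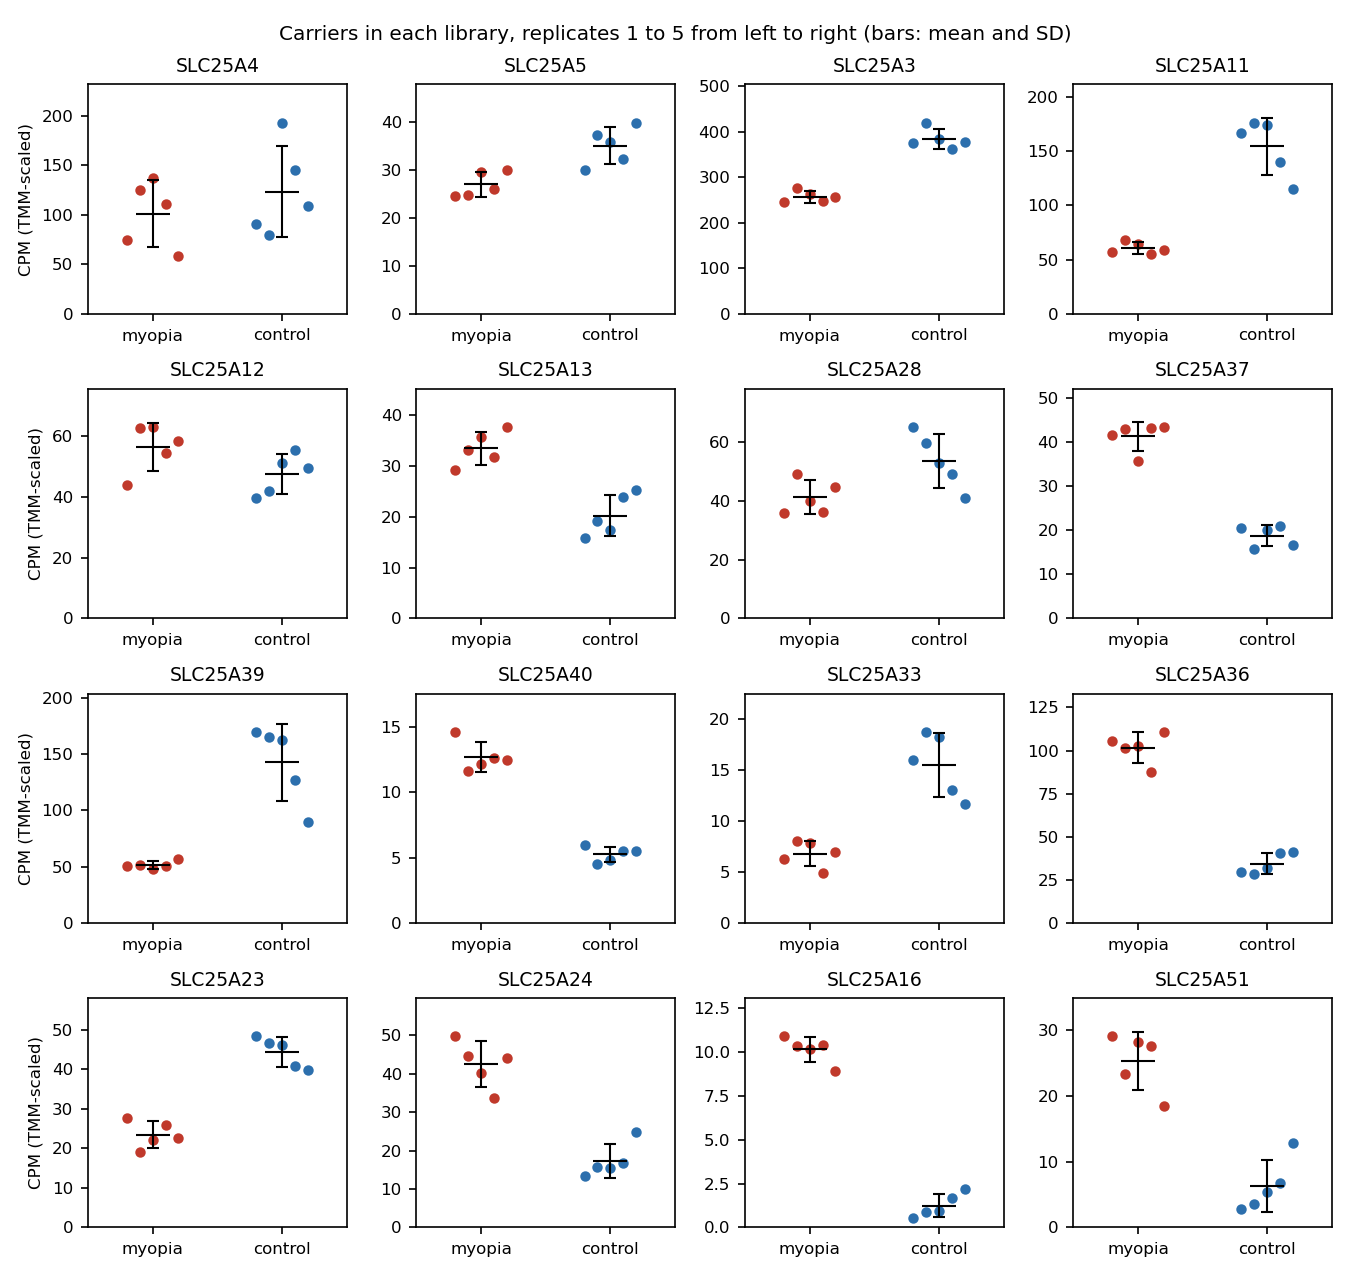
CPM of 16 carriers in each library on linear axes from 0, myopia left and control right, with group mean and SD. Neighbouring panels show related carriers, such as SLC25A39 (51.4 ± 3.15 in myopia, 143 ± 34.1 in control) and SLC25A40 (12.7 ± 1.15 in myopia, 5.26 ± 0.573 in control).

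Among carriers of pyrimidine nucleotides and cofactors 2 rose, 2 fell and 1 did not pass. SLC25A33 and SLC25A36 carry pyrimidine nucleotides for mitochondrial DNA and RNA synthesis. SLC25A36 had 106, 102, 103, 87.3 and 111 CPM in myopia libraries 1 to 5, against 29.3, 28.4, 31.95, 40.4 and 41.01 CPM in control libraries 1 to 5. It held 8.24 ± 0.815% of the family's reads in myopia and 2.24 ± 0.538% in control, and the log2 fold change was 1.57 ± 0.12 (SE, adjusted p = 3.57e-07). SLC25A33 had 6.29, 8.03, 7.83, 4.90 and 6.98 CPM in myopia libraries 1 to 5, against 15.9, 18.7, 18.2, 12.99 and 11.6 CPM in control libraries 1 to 5. It fell with no overlap, a log2 fold change of -1.19 ± 0.18 (SE, adjusted p = 4.1e-05).

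SLC25A26 imports S-adenosylmethionine, the methyl donor. Its more heavily counted line had 5.98, 7.19, 4.90, 6.10 and 5.85 CPM in myopia libraries 1 to 5, against 15.6, 14.2, 14.1, 9.22 and 9.19 CPM in control libraries 1 to 5. All myopia libraries lay below all control libraries, with a log2 fold change of -1.05 ± 0.18 (SE, adjusted p = 0.000145). A second line with the same symbol averaged 2.93 ± 0.642 CPM in myopia and 3.63 ± 0.454 CPM in control (SD, n = 5 each) and did not pass (-0.31 ± 0.20, SE; adjusted p = 0.181). Reads that both lines could claim may have been split between them, so the values of SLC25A26 are uncertain. SLC25A32, linked to folate and FAD, averaged 28.2 ± 2.18 CPM in myopia and 28.7 ± 2.95 CPM in control (SD, n = 5 each) and did not pass (-0.03 ± 0.10, SE; adjusted p = 0.822), but passed as higher with total-count scaling (0.42, adjusted p = 0.00538).

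Carriers of adenine nucleotides other than the ADP/ATP exchangers, of coenzyme A and of NAD held some of the steepest rises. SLC25A16, which is linked to coenzyme A supply, had 10.9, 10.3, 10.2, 10.4 and 8.95 CPM in myopia libraries 1 to 5, against 0.513, 0.881, 0.956, 1.67 and 2.18 CPM in control libraries 1 to 5. Its control libraries reached at most 2.18 CPM and its myopia libraries held at least 8.95 CPM, and the log2 fold change was 3.02 ± 0.30 (SE, adjusted p = 1.8e-06). SLC25A51, the mitochondrial NAD carrier, had 29.02, 23.3, 28.1, 27.5 and 18.4 CPM in myopia libraries 1 to 5, against 2.84, 3.56, 5.43, 6.76 and 12.8 CPM in control libraries 1 to 5. Control 5 stood at 12.8 CPM, between the other control libraries and the lowest myopia library, and the log2 fold change was 2.00 ± 0.34 (SE, adjusted p = 0.00018). SLC25A52, its close relative in the human genome, was not analysed here.

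The calcium-regulated ATP-Mg/phosphate carriers SLC25A23, SLC25A24 and SLC25A25 change the size of the matrix adenine nucleotide pool, and they did not move together. SLC25A24 had 49.8, 44.7, 40.3, 33.8 and 44.2 CPM in myopia libraries 1 to 5, against 13.3, 15.7, 15.6, 16.8 and 24.8 CPM in control libraries 1 to 5. It rose, with a log2 fold change of 1.30 ± 0.16 (SE, adjusted p = 8.04e-06), and control 5 was again the nearest control library. A second line of this symbol held at most 34 reads in any library and did not pass (adjusted p = 0.304). SLC25A23 averaged 23.5 ± 3.36 CPM in myopia and 44.3 ± 3.81 CPM in control (SD, n = 5 each), a log2 fold change of -0.92 ± 0.11 (SE, adjusted p = 7.04e-06) with no overlap. SLC25A25 averaged 19.7 ± 3.15 CPM in myopia and 22.6 ± 5.15 CPM in control (SD, n = 5 each) and did not pass (-0.20 ± 0.15, SE; adjusted p = 0.256). The coenzyme A carrier SLC25A42 (-0.31 ± 0.15, SE; adjusted p = 0.077) and the peroxisomal carrier SLC25A17 (-0.13 ± 0.09, SE; adjusted p = 0.216) did not pass either; SLC25A42 passed as lower without myopia 2 (-0.42, adjusted p = 0.0191) or control 5 (-0.37, adjusted p = 0.0277), and with control 4 and control 5 both left out (-0.43, adjusted p = 0.0174). With total-count scaling SLC25A17 passed as higher (0.31, adjusted p = 0.0128), while SLC25A25 (0.25, adjusted p = 0.212) and SLC25A42 (0.15, adjusted p = 0.333) turned positive without passing. SLC25A41 had 0 reads over the myopia libraries and 5 over the control libraries, and was not tested.

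All 3 uncoupling-protein-like carriers were higher in myopia, with a median log2 fold change of 1.38, beside 36.9% of all genes tested. The class is small, and 1 of the 3 calls, that of SLC25A14, lay near the threshold. The 3 carriers are relatives of the uncoupling proteins, which let protons back into the matrix, and are best known from brain and kidney. SLC25A30 had 14.6, 12.4, 16.4, 14.6 and 11.9 CPM in myopia libraries 1 to 5, against 2.41, 3.59, 2.77, 3.77 and 7.03 CPM in control libraries 1 to 5. Control 5 held the highest control value and the groups stayed apart, with a log2 fold change of 1.83 ± 0.25 (SE, adjusted p = 2.19e-05). SLC25A27 had 12.7, 14.3, 11.1, 10.04 and 14.6 CPM in myopia libraries 1 to 5, against 3.71, 3.91, 3.45, 5.58 and 7.39 CPM in control libraries 1 to 5. This gave a log2 fold change of 1.38 ± 0.21 (SE, adjusted p = 6.44e-05). SLC25A14 averaged 6.70 ± 1.08 CPM in myopia and 5.16 ± 0.429 CPM in control (SD, n = 5 each); its log2 fold change of 0.38 ± 0.16 (SE, adjusted p = 0.0428) lay near the threshold and was lost under RLE scaling (adjusted p = 0.0577), with limma-voom (adjusted p = 0.052) and without any one of control 2, 4 or 5 or myopia 2, 3 or 5 (0.29 to 0.39, adjusted p values of 0.057 to 0.122). The call of SLC25A14 also ended without a filter on reads (adjusted p = 0.0572) and with the replicate block (adjusted p = 0.0937). It ended too with control 4 and control 5 both left out (0.31, adjusted p = 0.125). The uncoupling protein UCP2, which the naming rule leaves out of the family, fell instead, averaging 50.5 ± 4.80 CPM in myopia and 141 ± 38.1 CPM in control (SD, n = 5 each), a log2 fold change of -1.49 ± 0.17 (SE, adjusted p = 4.51e-06). UCP3 did not pass (0.97 ± 0.54, SE, adjusted p = 0.119) and was named after its values were seen. UCP1, the heat-producing form of brown fat, had a mean of 0.0264 CPM in myopia and 0.00705 CPM in control and was not tested.

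Of the 7 remaining carriers 2 rose, 2 fell and 3 did not pass. SLC25A46 sits in the outer membrane and takes part in mitochondrial fission and lipid transfer. It had 10.4, 7.44, 9.47, 8.82 and 6.82 CPM in myopia libraries 1 to 5, against 0.237, 0.282, 0.819, 0.591 and 1.12 CPM in control libraries 1 to 5. It showed the highest fold change of the carriers, 3.79 ± 0.35 (SE, adjusted p = 9.51e-07) on the log2 scale, measured from 259 to 400 reads in each myopia library and 6 to 35 reads in each control library. SLC25A53, whose substrate is not known, rose, averaging 4.25 ± 0.876 CPM in myopia and 1.76 ± 0.383 CPM in control (SD, n = 5 each), a log2 fold change of 1.27 ± 0.22 (SE, adjusted p = 0.00019). SLC25A47, known from liver, had 1.56, 1.49, 1.98, 1.89 and 2.45 CPM in myopia libraries 1 to 5, against 6.94, 6.45, 5.70, 4.76 and 3.50 CPM in control libraries 1 to 5. It fell, with a log2 fold change of -1.54 ± 0.23 (SE, adjusted p = 4.72e-05). SLC25A35 averaged 3.33 ± 0.782 CPM in myopia and 5.60 ± 0.948 CPM in control (SD, n = 5 each), a log2 fold change of -0.75 ± 0.21 (SE, adjusted p = 0.00505), and did not pass with total-count scaling (-0.30, adjusted p = 0.228). SLC25A34, SLC25A43 and SLC25A45 did not pass, with log2 fold changes of -0.51, 0.29 and -0.15; SLC25A43 passed as higher with upper-quartile factors (0.37, adjusted p = 0.0472) and with total-count scaling (0.75, adjusted p = 0.00108).

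The ratio of related carriers within a library is free of the scaling between libraries, and was taken for 10 pairs with both genes tested. In 7 of the 10 the groups did not overlap and the ratio differed at the smallest p that 5 against 5 libraries allow (two-sided exact permutation test, p = 0.00794, adjusted over the 10 pairs 0.0113). The same separation held for 51.9% of all pairs of tested genes and for 61.6% of the 861 pairs among the 42 carriers, so it is not shown to be particular to related carriers, and the 10 pairs were chosen with earlier results known. The log2 ratio of SLC25A36 to SLC25A33 was 3.92 ± 0.22 in myopia and 1.15 ± 0.54 in control (SD, n = 5 each), a difference of 2.77. The glutathione pair SLC25A40 to SLC25A39 stood at -2.02 ± 0.16 in myopia and -4.72 ± 0.46 in control (SD, n = 5 each), a difference of 2.71. The mitoferrin ratio of SLC25A37 to SLC25A28 was 0.01 ± 0.21 in myopia and -1.50 ± 0.29 in control (SD, n = 5 each), a difference of 1.51. The 2 genes thus had near equal counts in myopia, and SLC25A28 had more counts in control. Counts of 2 genes do not tell which had more molecules, since longer transcripts give more reads. For SLC25A24 to SLC25A23 the ratio changed sign, at 0.86 ± 0.30 in myopia and -1.39 ± 0.45 in control (SD, n = 5 each), a difference of 2.25.

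SLC25A30 to SLC25A14 stood at 1.07 ± 0.38 in myopia and -0.50 ± 0.68 in control (SD, n = 5 each), a difference of 1.56. SLC25A25 to SLC25A24 stood at -1.11 ± 0.36 in myopia and 0.40 ± 0.44 in control (SD, n = 5 each), a difference of -1.51, and SLC25A13 to SLC25A12 at -0.75 ± 0.14 in myopia and -1.25 ± 0.22 in control (SD, n = 5 each), a difference of 0.50. The other 3 pairs did not pass in the exact permutation test. SLC25A5 to SLC25A4 was -1.84 ± 0.57 in myopia and -1.75 ± 0.55 in control (SD, n = 5 each), a difference of -0.09 (exact p = 0.825). SLC25A35 to SLC25A34 was 0.86 ± 0.68 in myopia and 1.13 ± 0.41 in control (SD, n = 5 each), a difference of -0.27 (exact p = 0.5). SLC25A22 to SLC25A18 was 3.52 ± 0.99 in myopia and 2.85 ± 0.10 in control (SD, n = 5 each), a difference of 0.67 (exact p = 0.0873), with the low SLC25A18 of myopia 2 giving that library the highest ratio, 5.21; without myopia 4 this pair passed (0.86, adjusted over the 10 pairs 0.0198).

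**Figure D4:**
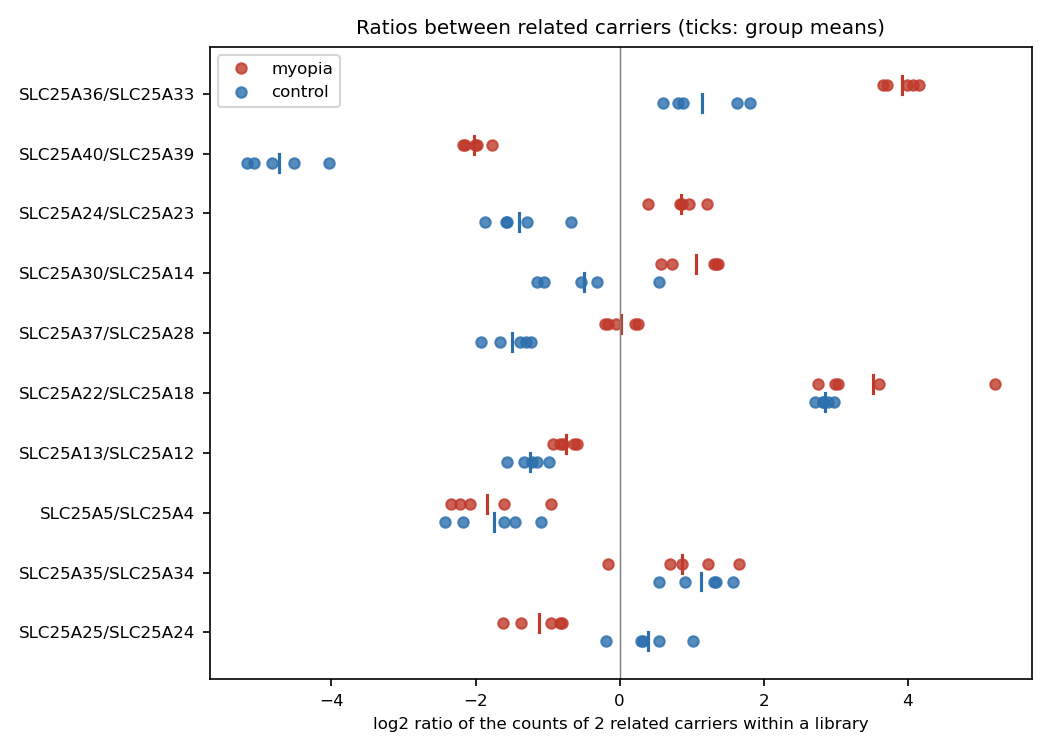
Log2 ratio of the counts of 2 related carriers in each library, myopia above control within each pair, with group means as ticks. The ratios of SLC25A36 to SLC25A33, SLC25A40 to SLC25A39 and SLC25A24 to SLC25A23 lie more than 2 log2 units higher in myopia on average, and the SLC25A5 to SLC25A4 ratios overlap.

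The untreated eyes themselves varied along the difference between the groups. Control libraries 4 and 5 lay on the myopia side of control libraries 1 to 3 for 26 of the 30 called carriers (86.7%), beside 87.6% of all 10561 called genes. The 4 called carriers without this shift included SLC25A5, SLC25A14 and SLC25A53. Control libraries 4 and 5 also scored nearer to myopia on the first principal component of these same counts, so high shares follow from that and are no separate evidence. Any shift was counted, however small, as for SLC25A37, at 18.76 CPM in control libraries 1 to 3 and 18.82 CPM in control libraries 4 and 5. SLC25A51 averaged 3.94 CPM in control libraries 1 to 3 and 9.75 CPM in control libraries 4 and 5, and SLC25A39 averaged 166 CPM in control libraries 1 to 3 and 108 CPM in control libraries 4 and 5. The coefficient of variation of the carriers had a median of 13.3% in myopia and 18.4% in control, beside 12.6% in myopia and 18.0% in control over all genes tested. It was higher in control for 33 of the 42. Without control libraries 4 and 5, 14 carriers were higher and 16 lower, beside 5734 higher and 5185 lower of 14957 genes tested.

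**Figure D5:**
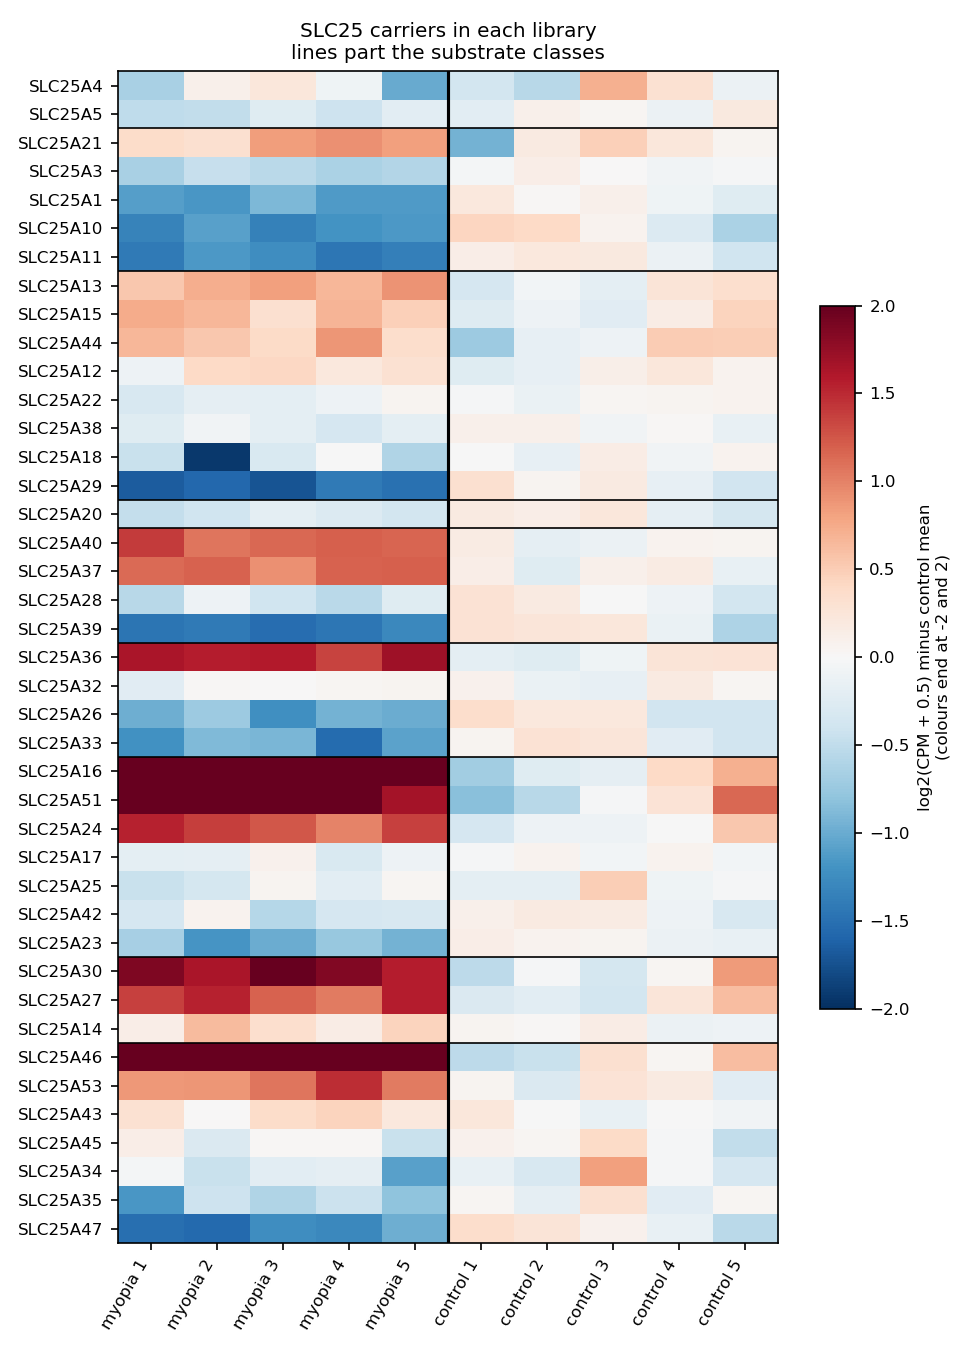
Log2(CPM + 0.5) of 41 of the 42 carriers tested minus the control mean of each, in each library, myopia left and control right, by substrate class. SLC25A16, SLC25A46 and SLC25A51 are among the darkest rises, and control 5 is shaded towards myopia for SLC25A51 and SLC25A30.

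Genes that work beside the carriers were read from lists drawn up for this comparison, without any test of the lists. Of 72 genes tested in these lists, 19 were higher and 36 lower in myopia, with a median of -0.26 on the log2 scale. With total-count scaling 33 were higher and 26 lower. Over all genes tested, 36.9% were higher and 35.1% lower, and with total-count scaling 52.0% were higher and 18.7% lower. The counts of each list below are to be read beside these shares. Family members under other names fell in 3 of 4 tested cases: MTCH1 and MTCH2, relatives that sit in the outer membrane, had log2 fold changes of -1.32 ± 0.13 (SE, adjusted p = 1.54e-06) for MTCH1 and -1.20 ± 0.12 (SE, adjusted p = 1.99e-06) for MTCH2, and UCP2 was the third. Of 16 genes of the import route of carriers 11 fell and 3 rose. The small chaperones TIMM13 and TIMM10, which guide carriers across the space between the membranes, fell, with log2 fold changes of -1.33 ± 0.11 (SE, adjusted p = 5.13e-07) for TIMM13 and -1.23 ± 0.12 (SE, adjusted p = 1.86e-06) for TIMM10, as did the pore TOMM40 (-0.98 ± 0.10, SE; adjusted p = 2.76e-06), while TOMM70, the receptor that carriers bind on arrival, rose (0.38 ± 0.08, SE; adjusted p = 0.000843). The chaperones TIMM8A (0.56 ± 0.11, SE, adjusted p = 0.000436) and TIMM9 (0.32 ± 0.13, SE, adjusted p = 0.0357) also rose, so the small chaperones moved both ways. TOMM70, TIMM8A and TIMM9 were named after their values were seen.

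The partners of mitoferrin in haem and iron-sulfur cluster synthesis fell in 7 of 10 cases and rose in 2. Those that rose were ABCB10 (log2 fold change 0.88 ± 0.23, SE, adjusted p = 0.00388) and NFS1 (0.54 ± 0.11, SE, adjusted p = 0.000404). FECH, the ferrochelatase, did not pass (0.06 ± 0.08, SE, adjusted p = 0.548). ABCB10, NFS1 and FECH were named after their values were seen. GLRX5 and LYRM4, which serve cluster assembly, averaged 37.6 ± 2.57 CPM in myopia and 103 ± 19.8 CPM in control (SD, n = 5 each) for GLRX5 and 8.70 ± 0.459 CPM in myopia and 25.6 ± 6.33 CPM in control (SD, n = 5 each) for LYRM4. Enzymes of the malate-aspartate and glycerol phosphate shuttles split 1 higher, 2 lower and 3 not passed. The matrix enzymes MDH2 and GOT2 fell, with log2 fold changes of -0.92 ± 0.10 (SE, adjusted p = 2.39e-06) for MDH2 and -0.46 ± 0.08 (SE, adjusted p = 0.000243) for GOT2, and GPD2, the mitochondrial glycerol phosphate dehydrogenase, rose (0.83 ± 0.10, SE; adjusted p = 9.6e-06). Of the calcium uniporter genes 3 rose and 3 fell, with MICU3, a calcium sensor of the channel, at 10.3 ± 1.58 CPM in myopia and 1.07 ± 0.817 CPM in control (SD, n = 5 each) and SMDT1, the subunit EMRE, at 49.4 ± 2.08 CPM in myopia and 106 ± 17.7 CPM in control (SD, n = 5 each).

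Among other inner membrane carriers 4 rose and 5 fell of 12 tested. MPC2, a subunit of the pyruvate carrier, fell (-0.88 ± 0.11, SE; adjusted p = 1.17e-05). Of 3 outer membrane channels 1 fell, VDAC2 (-0.26 ± 0.09, SE; adjusted p = 0.0197). Of 10 regulators of mitochondrial biogenesis 6 rose and 3 fell. GABPA (the DNA-binding subunit of nuclear respiratory factor 2), TFAM, which packages mitochondrial DNA, and the coactivator PPARGC1B rose, with log2 fold changes of 1.70 ± 0.16 (SE, adjusted p = 1.03e-06) for GABPA, 1.08 ± 0.11 (SE, adjusted p = 2.62e-06) for TFAM and 1.29 ± 0.13 (SE, adjusted p = 2.06e-06) for PPARGC1B, and the nuclear receptor ESRRA fell (-0.69 ± 0.08, SE; adjusted p = 5e-06).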

How the data were processed

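RNA-seq libraries were made from scleral RNA with an mRNA kit of the SMARTER family, per the labels' protocols. The authors deposited raw counts of reads per gene symbol, 1 column per library, as whole numbers. No aligner, counter, annotation or strand setting is stated (not given in the sources used here), and reads of overlapping or antisense genes may therefore be mixed. Listed in the submitters' processing notes are the builds GRCm38 and mm10, with no role, so no coordinates, gene lengths or sequences are given. A guinea pig gene table held 45 of the 46 carrier symbols.

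Lines without a symbol (437 of 18079) were left out; their share of the counts was 0.751% to 0.824% in myopia and 1.18% to 1.69% in control. Symbols were compared in upper case, and for a symbol on several lines the line with the highest mean stood for the carrier or listed gene. The other lines stayed in the fit, so counts over all genes are counts of lines. With lines of a symbol summed, 10217 of 14137 genes passed, 5216 higher and 5001 lower. With filterByExpr (minimum count 10, minimum total 15), 14683 lines were kept and fitted in edgeR (version 4.0.16, under R 4.3.3; TMM, robust glmQLFit, glmQLFTest, group as the factor); p-values were adjusted by Benjamini-Hochberg across these lines, at a threshold of 0.05. Each SE is the log2 fold change over the root of its F. Pair ratios, as log2 of (count + 0.5), were tested with two-sided exact permutation tests in scipy 1.17.1. The share of all pairs of tested genes, and of carriers, whose ratios did not overlap between groups was counted after seeing the data. The tests were tested on simulated data. No library was a copy of another (chi-square over its degrees of freedom was at least 18.7 for replicates).

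Members, lists and pairs were chosen with earlier results of these data known. Values in every library are given for 10 carriers chosen by name (SLC25A3, 4, 5, 1, 11, 12, 13, 20, 28 and 37; SLC25A6, also on that list, was not analysed here) and for the 8 highest and 8 lowest called carriers with a mean of at least 2 CPM. Other lists give at most 4 called members by smallest p, besides the genes said to be named after their values were seen. One carrier that was tested enters the counts and class shares but is not reported here by name or in the plots. Alternatives were other scaling factors, filters of none or 1 CPM in 5 libraries, DESeq2 1.42.0, limma-voom (limma 3.58.1), a replicate block, 1 surrogate variable (sva 3.50.0), lines of a symbol summed, each library left out, and control libraries 4 and 5 left out.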

Additional observations from a re-analysis of the deposited data

Results flagged for a closer look

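In 5 of the 106 groups of 5 values checked, 1 library stood apart from the others by more than 0.71 of the group's range; chance flags about 1 in 20. SLC25A1 stood at 45.04 CPM in myopia 3, where the other myopia libraries held 37.3 to 38.9 CPM. SLC25A37 was lowest in the same library, at 35.6 CPM beside 41.7 to 43.4 CPM. SLC25A32 was lowest in myopia 1, at 24.4 CPM beside 28.6 to 29.8 CPM. SLC25A25 and SLC25A34 were both highest in control 3, at 31.6 CPM beside 19.3 to 21.8 CPM for SLC25A25 and at 4.85 CPM beside 1.89 to 2.49 CPM for SLC25A34. That library also held the highest sum of skeletal muscle markers, 10412 CPM, and the part of muscle was not tested.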

How the results depend on the processing

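Of the 42 carriers tested, 22 kept their direction and their side of the threshold under every alternative run, 12 of them higher, 9 lower and 1 not passed. Carriers called numbered 24 to 29 on leaving out 1 library, 12 to 15 of them higher and 12 to 16 lower. Total-count scaling gave 9 carriers lower, 2751 of all genes lower and 33 genes of the related lists higher. It also reversed SLC25A4 (0.15), SLC25A5 (0.063), SLC25A17 (0.31), SLC25A20 (0.094), SLC25A22 (0.30), SLC25A25 (0.25), SLC25A28 (0.082), SLC25A32 (0.42), SLC25A38 (0.24), SLC25A42 (0.15) and SLC25A45 (0.31); by construction it leaves out the TMM factors. SLC25A32, near 0, was also reversed with upper-quartile factors (0.044) and without control libraries 4 and 5 (0.060), and lay between -0.056 and 0.033 on leaving out 1 library, above 0 without myopia 1, control 1 or control 4. All genes called numbered 10133 to 10854 on leaving out 1 library, 5229 to 5678 higher and 4879 to 5176 lower, and related genes 18 to 20 higher and 35 to 37 lower. Pairs passing numbered 7 to 8 then, and the SLC25A5 to SLC25A4 difference lay between -0.31 and 0.074, above 0 without myopia 2, myopia 3 or control 2. Without control libraries 4 and 5, 0 pairs passed: the smallest p of 5 against 3 libraries is 0.0357, and with 7 of the 10 pairs at it the adjusted p is 0.051; the 7 differences kept their sign. Same-numbered libraries of the groups did not deviate together (correlations of -0.13 to 0.01). Low correlations cannot exclude that the numbers pair samples, and the labels do not say. With the replicate block 27 carriers passed, 13 higher and 14 lower, beside 10103 of all 14683 genes, 5184 higher and 4919 lower. The count of reads limits SLC25A2, SLC25A31, SLC25A41 and SLC25A48, each with at most 6 reads in a group.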
